A study of Mus musculus with 16 samples.

Results

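Fatty acid synthesis in mouse liver, with its transcription factors SREBP1c and ChREBP, was followed through 10 genes taken by symbol from a table of 12618 genes. They comprise 2 regulators, Srebf1 (SREBP1) and Mlxipl (ChREBP), and 8 enzymes or enzyme helpers, Acly, Acss2, Acaca, Acacb, Fasn, Me1, Thrsp and Mid1ip1. Messenger RNA was sequenced from the livers of 2 groups of mice, 8 libraries from mice labelled Cyp7a1 CRISPR and 8 from mice labelled control CRISPR (Control). All mice in both groups had been fed a Western diet for 8 weeks, so no liver on another diet was analysed here. Cyp7a1 encodes the rate-limiting enzyme of the classical route of bile acid synthesis, and the study asks how bile acids act on lipid metabolism. The sources used here do not give the strain, sex or age of the mice, how the edit was delivered or the hour of collection. Nothing in the labels states whether a library stands for its own animal, and the p-values therefore measure the spread between these libraries, which may be technical.

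The liver makes fatty acids from citrate that leaves the mitochondria. Acly and Acss2 make cytosolic acetyl-CoA, Acaca and Acacb turn it into malonyl-CoA, Fasn assembles palmitate from both, and Me1 supplies part of the NADPH that Fasn uses. SREBP1c is induced by insulin and by the oxysterol receptor LXR and has to be cut from its membrane precursor before it acts, whereas ChREBP is activated by sugar metabolites. Both raise transcription of these enzymes, and their activity is set after translation as well as by the amount of their mRNA.

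Depth ran from 13.8 to 27.4 M reads per library, 23.43 ± 2.41 M in Cyp7a1 livers and 21.02 ± 3.48 M in Control livers (SD, n = 8 each). The Cyp7a1 transcript was not lower in the livers labelled Cyp7a1. It was lowest at 3069, had a median of 4892 and was highest at 5873 normalized counts there, against 2148, 3281 and 5642 in Control livers, and the groups overlapped. Its log2 difference was 0.43 ± 0.20 (SE; limma adjusted p = 0.227), so every direction below rests on the labels and not on this transcript. Of the hepatocyte markers, 9 of 10 were in the table, and their summed level ran from 1749300 to 2462600 normalized counts in Cyp7a1 livers and from 1687300 to 2473100 in Control livers. The adipocyte markers Adipoq, Lep, Plin1 and Retn were not among the genes in the table, and the other 8 summed to between 6451 and 10120 in Cyp7a1 livers and between 5306 and 14539 in Control livers. Of 48 tested markers of adipocytes, Kupffer cells, recruited macrophages, stellate cells, endothelial cells and blood or lymphocytes, 0 were called by limma at an adjusted p under 0.05 and 3 had an unadjusted p under 0.05. Of all 12617 genes tested, 6.12% were called, and between 2429 and 2605 had an unadjusted p under 0.05. Of the hepatocyte markers 1 was called, Cyp3a11, lower at -0.47 on the log2 scale, and of the 6 tested cholangiocyte markers 1, Krt23, lower at -2.15, both named after their values were seen. The rest of these lists did not follow them. Log2 differences were above 0 for 7 of the 9 tested hepatocyte markers and 5 of the 6 cholangiocyte markers, with 0 called higher in either list. In bulk samples, fewer cells of a type and less RNA per cell cannot be told apart.

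The regulators and the enzymes did not move together. Both regulators were lower in Cyp7a1 livers, Srebf1 at 0.507 and Mlxipl at 0.625 of the Control level. Of the 8 enzymes and helpers, Acss2 alone passed the test, and it was 1.92-fold higher, while the remaining 7 did not pass in either direction. Across all 12617 genes tested, 6.12% were called, 3.05% lower and 3.07% higher, beside 2 of 10 members called lower and 1 of 10 called higher. The members were chosen with earlier results of these data known, so these counts are a description and no test of the set. The median log2 difference was -0.83 over the 2 regulators and 0.08 over the 8 enzymes and helpers, against 0.00 over all genes.

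**Figure D1:**
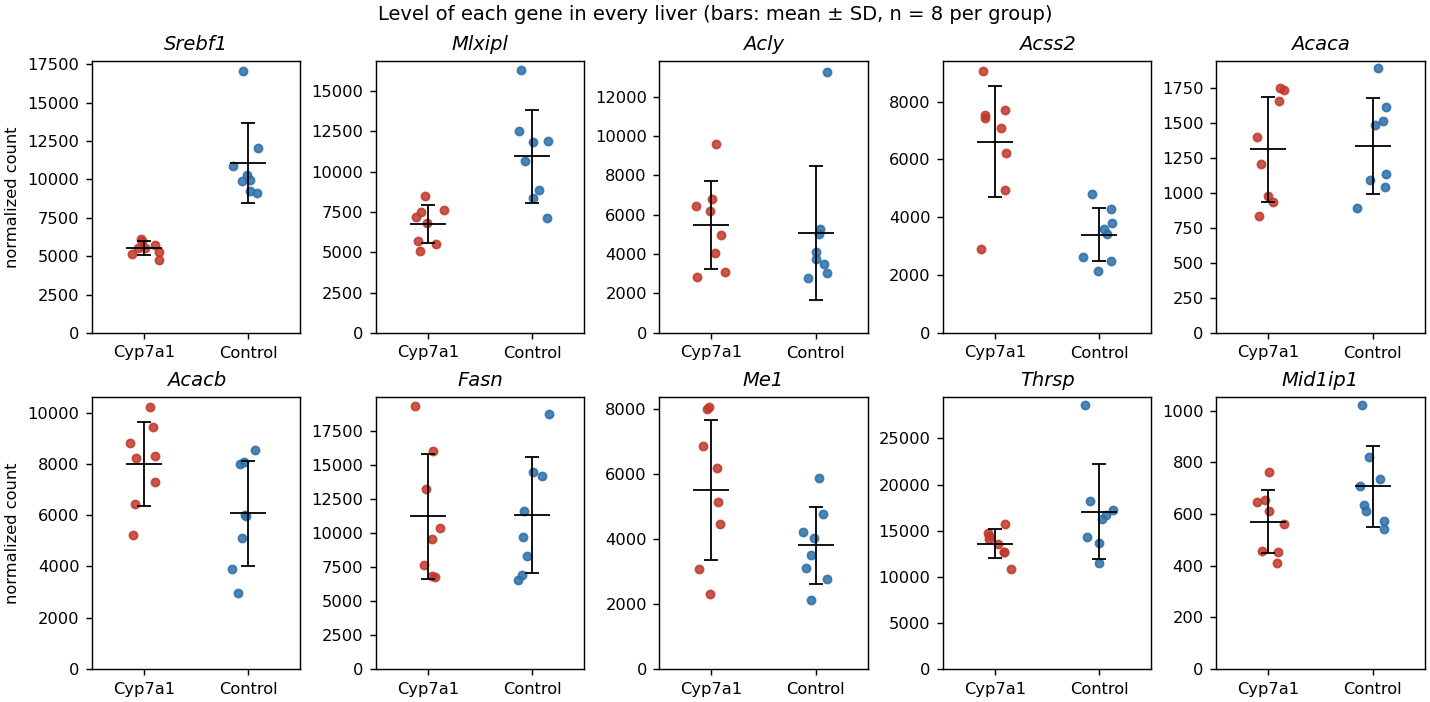
Normalized count of each of the 10 genes (vertical axis, starting at 0) in every liver, Cyp7a1 in red and Control in blue, with mean ± SD. Srebf1 separates the groups completely, Acss2 is higher in 7 of 8 Cyp7a1 livers than every Control liver, and Acly, Acaca and Fasn overlap throughout.

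Srebf1, which encodes the SREBP1a and SREBP1c forms of the sterol-regulated factor that drives fatty acid synthesis, was the most separated of the 10 genes. It lies on chromosome 11 at 60199089 to 60222581, minus strand (GRCm38, the same assembly as mm10). Its level was lowest at 4768, had a median of 5536 and was highest at 6138 normalized counts in Cyp7a1 livers, against 9089, 10124 and 17100 in Control livers. No Cyp7a1 liver reached the lowest Control liver. Such a separation in the lower direction occurred in 0.531% of all genes. The log2 difference was -0.98 ± 0.10 (SE, 95% interval -1.20 to -0.76; limma adjusted p = 3.23e-05), and Srebf1 ranked 10 among all genes by p. Cyp7a1 livers also varied little among themselves, with a coefficient of variation of 8.19% against 23.6% in Control livers. Without Control 20, the highest Control library, the Control value was 9.93%. Gene-level counts do not separate SREBP1a from SREBP1c, and Srebf1 overlaps Rai1 on the opposite strand, with the strand setting of the counting not given in the sources used here.

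The bases before the innermost annotated start site of Srebf1 are shown because LXR acts on SREBP1c through a pair of elements close to its start, and those of Fasn because the same letters occur there although its mRNA did not pass the test. The sequences are from RefSeq, build GRCm38.p6, 5′ to 3′ on the gene's own strand and ending just before the start site, from chr11:60210472-60210721 (minus strand) for Srebf1 and chr11:120824548-120824797 (minus strand) for Fasn. Capitals mark the longest string that occurs more than once in the Srebf1 stretch, AGTAACCCC, and its match in Fasn.
Srebf1: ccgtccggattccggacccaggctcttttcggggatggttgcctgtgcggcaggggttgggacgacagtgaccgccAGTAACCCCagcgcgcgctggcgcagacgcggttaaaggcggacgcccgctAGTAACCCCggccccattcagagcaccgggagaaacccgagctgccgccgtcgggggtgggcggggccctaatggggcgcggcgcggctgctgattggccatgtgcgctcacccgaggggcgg
Fasn: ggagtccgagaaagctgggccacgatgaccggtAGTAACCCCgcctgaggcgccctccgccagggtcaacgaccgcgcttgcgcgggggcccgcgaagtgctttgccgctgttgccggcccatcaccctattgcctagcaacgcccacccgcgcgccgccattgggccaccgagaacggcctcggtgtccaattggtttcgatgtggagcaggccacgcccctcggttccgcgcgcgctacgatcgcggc
The string was read off the Srebf1 stretch itself, so its 2 copies there, which begin 174 and 123 bases before the start site, are no finding. In Fasn it begins 217 bases before the start site. Searched on both strands, it occurs in 44 of 32851 promoter windows of 300 bases (0.134%), each running from 250 bases before a start site to 50 after it. These windows belong to 42 genes, of which 16 were tested. Without Srebf1, from which the string was read, 1 of 15 was called lower and 0 higher, against 3.05% lower and 3.07% higher of all genes. Their log2 differences ran from -0.35 to 0.40 with a median of -0.02. The one called was Dhrs11 (log2 -0.23, limma adjusted p = 0.0459), named after its value was seen. The genes that encode LXR itself, Nr1h3 and Nr1h2, differed by -0.06 and -0.04 (limma adjusted p = 0.539 and 0.720), and both are named after their values were seen. A match is a description of letters and not evidence of binding.

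Mlxipl encodes ChREBP, the carbohydrate response factor that drives glycolytic and fatty acid synthesis genes. It lies on chromosome 5 at 135089890 to 135138382, plus strand. Its level was lowest at 5082, had a median of 6984 and was highest at 8469 normalized counts in Cyp7a1 livers, against 7104, 11245 and 16284 in Control livers. All 8 Cyp7a1 livers were below the Control mean, and 4 of them fell inside the Control range. The log2 difference was -0.68 ± 0.15 (SE, 95% interval -0.99 to -0.37; limma adjusted p = 0.0118). The counts do not separate the ChREBP isoforms. Relative to Srebf1 in the same liver, Mlxipl was higher by 0.30 on the log2 scale in Cyp7a1 than in Control livers (limma adjusted p = 0.0236; two-sided exact permutation test of the ratio, p = 0.0242, unadjusted). Taken the other way round, Srebf1 relative to Mlxipl gave a limma adjusted p of 0.0546, since limma shares its spread estimate with other genes in each fit.

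Acss2 and Acly make the acetyl-CoA that enters the pathway, from acetate and from citrate. Acss2, on chromosome 2 at 155517948 to 155585724, plus strand, had 2901, 7258 and 9058 normalized counts (lowest, median and highest) in Cyp7a1 livers, against 2145, 3506 and 4793 in Control livers. Of the Cyp7a1 livers, 7 of 8 lay above the highest Control liver, and the remaining one, Cyp7a1 36, lay inside the Control range. The log2 difference was 0.94 ± 0.21 (SE, 95% interval 0.50 to 1.38; limma adjusted p = 0.0129). Acss2 overlaps Acss2os, Ggt7 and Gss on the opposite strand. Acly had 2814, 5577 and 9584 normalized counts in Cyp7a1 livers, against 2781, 3925 and 13230 in Control livers, and all 8 Cyp7a1 livers lay inside the Control range. Its log2 difference was 0.19 ± 0.29 (SE, 95% interval -0.43 to 0.81; limma adjusted p = 0.785), an interval that spans both a fall and a rise. The highest Acly value of all 16 libraries was that of Control 20, and the Control mean of 5084 ± 3407 was 3921 ± 948 without it.

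The bases before the Acss2 start site are shown because Acss2 was the enzyme that rose (RefSeq GRCm38.p6, chr2:155517793-155518042, plus strand). Capitals mark matches to the GC box GGGCGG, read here on the opposite strand.
Acss2: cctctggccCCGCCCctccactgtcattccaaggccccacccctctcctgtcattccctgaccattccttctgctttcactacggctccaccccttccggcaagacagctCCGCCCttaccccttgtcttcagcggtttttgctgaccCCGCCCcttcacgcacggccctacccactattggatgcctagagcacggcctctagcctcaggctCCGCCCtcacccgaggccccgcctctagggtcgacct
The 300-base window held 5 GC boxes, 1 of them after the start site and so not shown. At least 1 GC box was in 35.7% of all windows, and the number per window was not compared there. Windows of other members held 4 (Acly), 4 and 0 (Me1), 3 (Mid1ip1), 3, 2 and 0 (Srebf1) and 2 and 0 (Mlxipl). Those of Acaca, Acacb, Fasn and Thrsp held 0. A link of these boxes to the rise of Acss2 was not tested. The letters TCACNCCA, used as the core of a sterol regulatory element, were in 4.36% of all windows, and among the 14 windows of the 10 genes they were found in 1, a second Mlxipl window. The E box CACGTG was in 7.15% of all windows and in 1 of the 14, the other Mlxipl window. Only exact letters were searched, so a window without a match is not shown to lack such an element.

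Acaca and Acacb, the acetyl-CoA carboxylases, make the malonyl-CoA used for synthesis and the malonyl-CoA that restrains fatty acid oxidation at the mitochondria. Acaca (chromosome 11, 84129672 to 84401651, plus strand) had 836, 1305 and 1750 normalized counts in Cyp7a1 livers, against 895, 1315 and 1892 in Control livers. The groups covered almost the same range, with a log2 difference of -0.04 ± 0.18 (SE, 95% interval -0.42 to 0.34; limma adjusted p = 0.939). Acacb (chromosome 5, 114146535 to 114250761, plus strand) had 5232, 8273 and 10246 normalized counts in Cyp7a1 livers, against 2958, 5988 and 8565 in Control livers. Of the Cyp7a1 livers, 7 of 8 lay above the Control mean and 5 inside the Control range. The Acacb difference of 0.45 ± 0.20 (SE, 95% interval 0.03 to 0.87) did not pass after adjustment (limma adjusted p = 0.202).

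Fasn, the fatty acid synthase, lies on chromosome 11 at 120805846 to 120824547, minus strand, and no other annotated gene overlaps it. It had 6759, 9976 and 19344 normalized counts in Cyp7a1 livers, against 6567, 10623 and 18722 in Control livers. Its log2 difference was -0.02 ± 0.25 (SE, 95% interval -0.55 to 0.50; limma adjusted p = 0.973). Within each group Fasn varied widely, with a coefficient of variation of 41.1% in Cyp7a1 and 37.7% in Control livers, and the interval does not include a fall as large as that of Srebf1. Me1, the malic enzyme (chromosome 9, 86581371 to 86695953, minus strand), had 2308, 5652 and 8053 normalized counts in Cyp7a1 livers, against 2128, 3768 and 5859 in Control livers. Of the Cyp7a1 livers, 6 of 8 lay above the Control mean, but the difference of 0.48 ± 0.25 did not pass (SE, 95% interval -0.05 to 1.01; limma adjusted p = 0.298).

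Thrsp (Spot14) and Mid1ip1, a related protein that promotes the polymerization of acetyl-CoA carboxylase, assist the enzymes. Thrsp (chromosome 7, 97412938 to 97417730, minus strand) had 10792, 13827 and 15751 normalized counts in Cyp7a1 livers, against 11472, 16466 and 28586 in Control livers. All 8 Cyp7a1 livers lay below the Control mean, but 7 of them were inside the Control range. The log2 difference of -0.29 ± 0.14 did not pass (SE, 95% interval -0.57 to 0.00; limma adjusted p = 0.245), and without Control 20 it was -0.17. Mid1ip1 (chromosome X, 10715013 to 10719690, plus strand) had 410, 588 and 765 normalized counts in Cyp7a1 livers, against 544, 672 and 1022 in Control livers. Its difference of -0.31 ± 0.14 did not pass either (SE, 95% interval -0.60 to -0.02; limma adjusted p = 0.212).

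**Figure D2:**
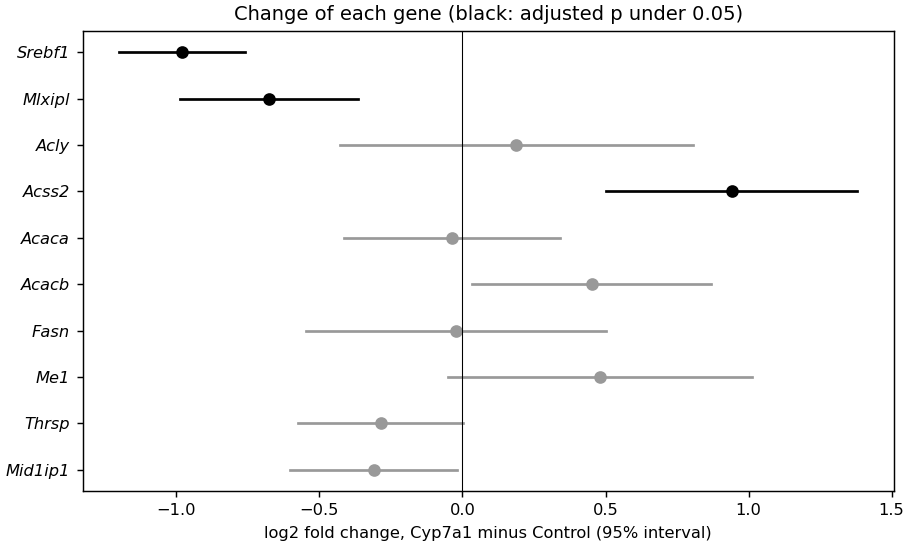
Log2 fold change of each gene, Cyp7a1 minus Control (horizontal axis), with unadjusted 95% intervals from limma, and black where the adjusted p was under 0.05. The intervals of Srebf1, Mlxipl and Mid1ip1 lie below 0, and those of Acss2 and Acacb lie above 0. After adjustment Srebf1, Mlxipl and Acss2 passed, and the other 7 genes did not.

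Levels can be set between genes after division by the length of the exons. On the scale of normalized counts per kb of exon, Thrsp was the highest of the 10 at 6211 ± 702 in Cyp7a1 livers and 7789 ± 2352 in Control livers (SD, n = 8 each). Acaca was the lowest at 76.9 ± 22.0 in Cyp7a1 and 78.2 ± 20.1 in Control livers. In Control livers Mlxipl (1976 ± 522) and Srebf1 (1963 ± 464) came next after Thrsp, and their levels per kb differed by far less than their SD. In Cyp7a1 livers the order below Thrsp was Me1 (1429 ± 558), Mlxipl (1216 ± 214), Acly (1039 ± 425), Fasn (1025 ± 421) and Srebf1 (978 ± 80.2), and these neighbours lay within their spread of each other. The exon length is the union over all annotated transcripts, so a gene with long rare exons, as Acaca with 17.07 kb, gets a low value per kb.

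Regulators and enzymes were then set side by side in each liver, as the mean over the 2 regulators and over the 8 enzymes and helpers of the log2 difference from the Control mean. The regulator mean lay between -1.12 and -0.65 in Cyp7a1 livers and between -0.35 and 0.64 in Control livers, so these ranges did not overlap. Srebf1 alone already separated the groups, whereas for Mlxipl alone 4 of 8 Cyp7a1 livers lay inside the Control range. The enzyme mean lay between -0.39 and 0.70 in Cyp7a1 livers and between -0.55 and 0.63 in Control livers, which is almost the same span. The enzyme mean exceeded the regulator mean in 8 of 8 Cyp7a1 livers, by 0.26 to 1.47 with a median of 1.07. In Control livers this difference lay between -0.43 and 0.65 with a median of -0.09. Every Cyp7a1 regulator mean was -0.65 or lower, so genes that did not change would mostly exceed it as well. The 8 of 8 is therefore not particular to the enzymes. Only Cyp7a1 36, at 0.26, fell inside the Control range. It had the highest Srebf1 level and the lowest Acly, Acss2, Acacb and Me1 levels of its group. Cyp7a1 2 had the highest value of its group for 6 of the 10 genes, and Control 20 for 8 of the 10.

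**Figure D3:**
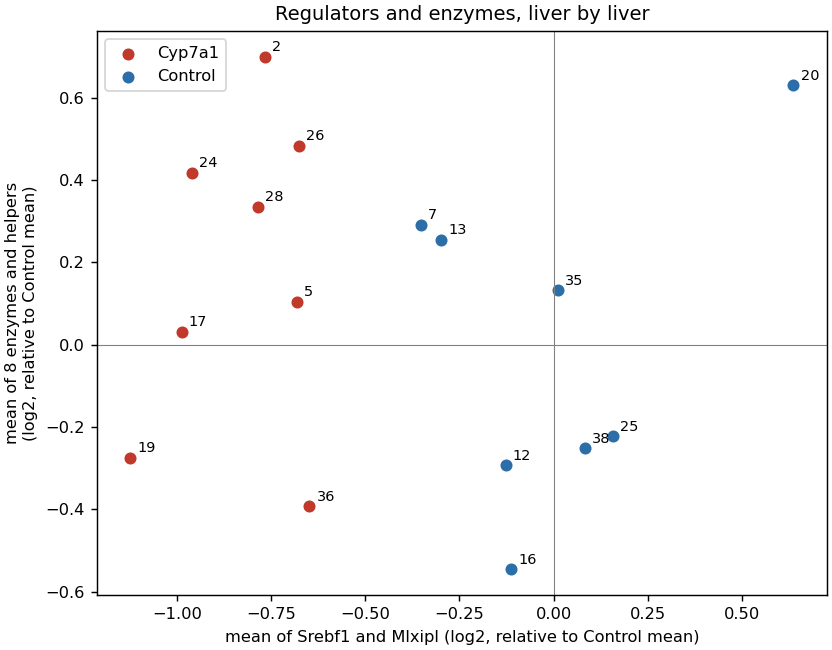
Mean of the 8 enzymes and helpers (vertical axis) against the mean of the 2 regulators (horizontal axis) in each liver, both in log2 relative to the Control mean, with the library number beside each point. Cyp7a1 livers lie to the left, between -1.12 and -0.65, while the heights of both groups overlap, from -0.39 to 0.70 in Cyp7a1 and from -0.55 to 0.63 in Control livers.

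Dividing each enzyme by Srebf1 in the same liver gives the size of this separation. The ratio of Acss2 to Srebf1 was 0.473, 1.30 and 1.63 (lowest, median and highest) in Cyp7a1 livers, against 0.219, 0.307 and 0.431 in Control livers, and the groups did not overlap. The log2 difference of this ratio was 1.92 ± 0.20 (SE; limma adjusted p = 4.68e-08; two-sided exact permutation p = 0.000155, unadjusted and the smallest that 12870 assignments can give). The ratio of Fasn to Srebf1 was 1.11, 1.82 and 3.48 in Cyp7a1 livers, against 0.637, 0.949 and 1.59 in Control livers. This was the least separated of the 8, with 5 of 8 Cyp7a1 livers above every Control liver and a log2 difference of 0.96 ± 0.22 (SE; limma adjusted p = 0.000203; two-sided exact permutation p = 0.00311, unadjusted). The ratios of Thrsp and Mid1ip1 to Srebf1 also separated the groups, with log2 differences of 0.69 ± 0.13 and 0.67 ± 0.12 (SE). Srebf1 itself did not overlap between groups, and Thrsp and Mid1ip1 did not pass on their own levels. How many of all genes separate the groups in their ratio to Srebf1 was not counted. All 8 enzymes and helpers passed relative to Srebf1 in limma, but so did 98.5% of all genes, since Srebf1 fell and most genes did not. The ratios show that any fall of these genes was smaller than that of Srebf1, and this was not particular to them.

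**Figure D4:**
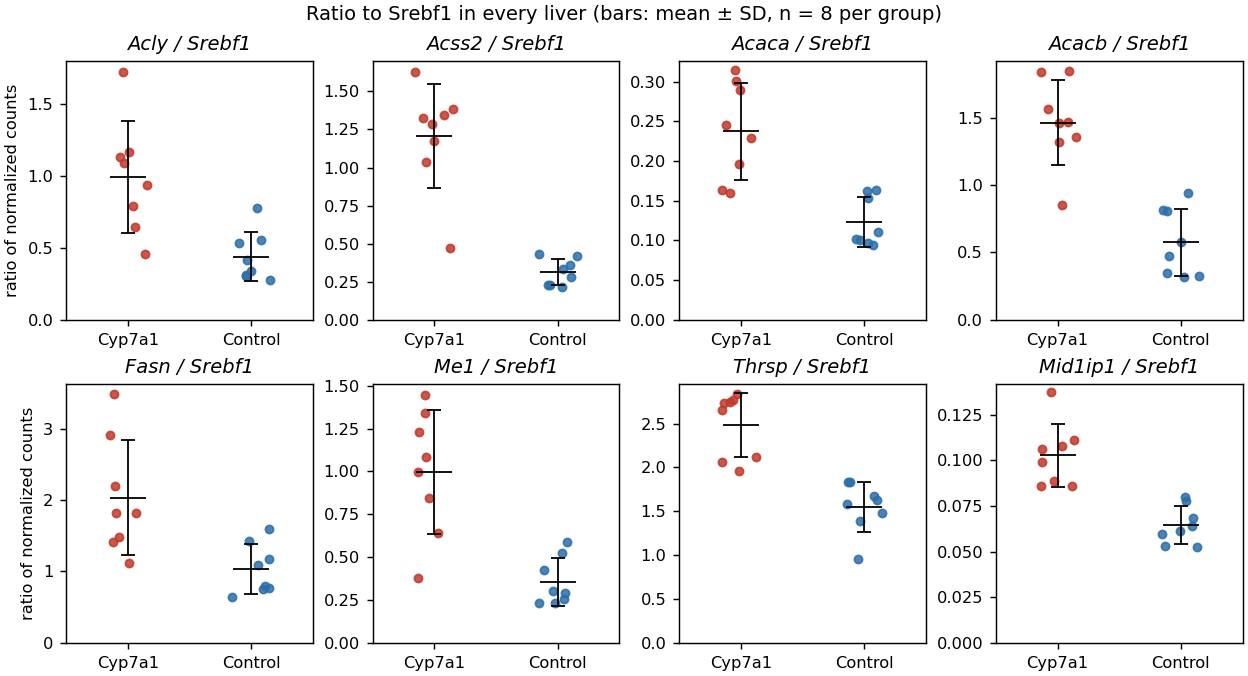
Ratio of each enzyme or helper to Srebf1 in the same liver (vertical axis, ratio of normalized counts, starting at 0), Cyp7a1 in red and Control in blue, with mean ± SD. The ratios of Acss2, Thrsp and Mid1ip1 do not overlap between groups, and those of the other 5 overlap in part. The Srebf1 level alone also separates the groups, and the share of all genes whose ratio does so was not counted.

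Relative to Mlxipl the separation was smaller. The 8 log2 differences ran from 0.37 for Mid1ip1 to 1.62 for Acss2, and all 8 passed in limma, as did 91.8% of all genes. The exact permutation test of the same ratios gave an unadjusted two-sided p of 0.000466 for Acss2, 0.0563 for Fasn and 0.0503 for Thrsp. Of the 16 fits that each left out 1 library, Mid1ip1 lost its call in 11, without Cyp7a1 2, 17, 24, 26, 28 or 36 or Control 12, 16, 25, 35 or 38, with adjusted p up to 0.115 without Control 38. Thrsp lost it in 6, without Cyp7a1 17, 19 or 28 or Control 16, 25 or 38, with adjusted p up to 0.107 without Control 25.

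Within each group, livers with more of a regulator's mRNA were compared with livers with more of an enzyme's. Of 32 such relations, 16 in each group, 0 passed after Benjamini-Hochberg adjustment, and 1 had an unadjusted exact permutation p under 0.05. That one was Srebf1 with Mid1ip1 in Cyp7a1 livers (Pearson r = 0.796, exact permutation p = 0.0186, adjusted 0.594; Spearman rho = 0.786, exact permutation p = 0.0279, adjusted 0.894; n = 8). It was 0.681 without the 2 libraries farthest from the Srebf1 median, and without Cyp7a1 2 alone it was 0.938 with an adjusted exact permutation p of 0.0381. The same pair in Control livers had r = 0.711 (exact permutation p = 0.0522, adjusted 0.835) and rho = 0.214 (exact permutation p = 0.619, adjusted 1), and its r was -0.90 without Control 20 and Control 25. The median r of Srebf1 with the 8 was 0.211 in Cyp7a1 and 0.464 in Control livers. Without the 2 libraries farthest from the Srebf1 median of each group, these medians were 0.573 in Cyp7a1 livers and -0.14 in Control livers, where the range was -0.90 to 0.26. The median r of Mlxipl with the 8 was 0.198 in Cyp7a1 and 0.0955 in Control livers, and -0.08 and -0.21 without the 2 farthest libraries of each group. In Control livers Srebf1 with Acly had r = 0.759 (exact permutation p = 0.0845, adjusted 0.902) and rho = 0.190 (exact permutation p = 0.665, adjusted 1). Its r was -0.29 without Control 20 and Control 25, so it rests on those libraries.

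The enzymes, by contrast, varied together from liver to liver. Of the 58 relations among the other pairs of the 10 genes, 29 in each group, 8 passed in Cyp7a1 and 8 in Control livers after adjustment over the 58, each between 2 of the 6 enzymes Acly, Acss2, Acaca, Acacb, Fasn and Me1. The median r over the 15 pairs of these 6 was 0.835 in Cyp7a1 and 0.829 in Control livers, and the lowest was 0.424 and 0.418. Acly with Fasn had r = 0.947 (exact permutation p = 0.000422, adjusted 0.00815; rho = 0.952, p = 0.00114, adjusted 0.0165) in Cyp7a1 livers and r = 0.869 (exact permutation p = 0.000397, adjusted 0.00815; rho = 0.905, p = 0.00456, adjusted 0.0241) in Control livers. Acaca with Fasn had r = 0.928 in Cyp7a1 and 0.958 in Control livers, with adjusted exact permutation p = 0.0145 and 0.00863. Among the 11 pairs that passed in either group, 5 passed in both, namely Acaca with Fasn, Acly with Acaca, Acly with Acss2, Acly with Fasn and Acss2 with Me1. Without the 2 farthest libraries, the r of the passing relations lay between 0.523 and 0.937. Thrsp and Mid1ip1 had no relation past the threshold in either group. The regulators' own relation did not pass, with r = 0.633 in Cyp7a1 and 0.701 in Control livers (exact permutation p = 0.0931 and 0.0496, adjusted 0.159 and 0.103; rho = 0.571 and 0.619, adjusted 0.237 and 0.222).

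**Figure D5:**
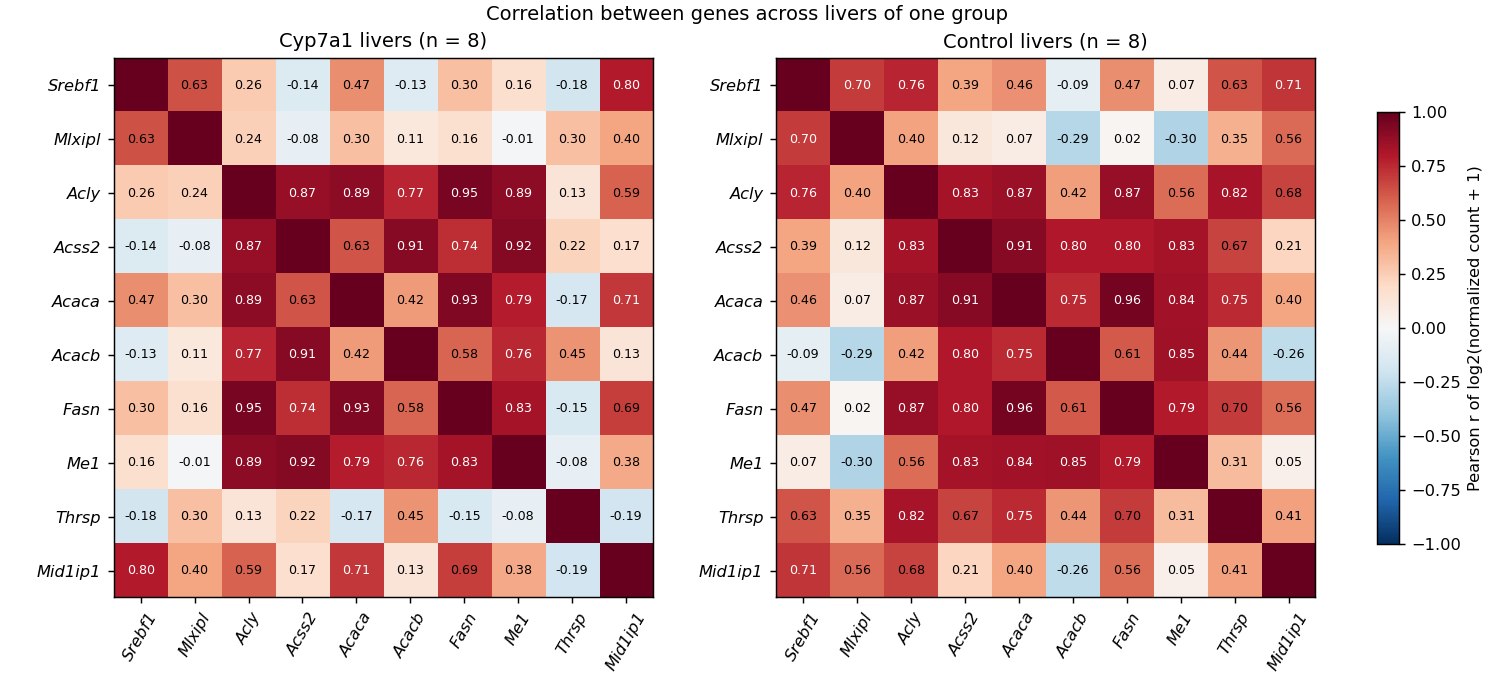
Pearson r between each pair of the 10 genes across the 8 livers of a group, Cyp7a1 on the left and Control on the right, on log2(normalized count + 1), with red for positive and blue for negative. In the block from Acly to Me1, r lies between 0.424 and 0.947 in Cyp7a1 and between 0.418 and 0.958 in Control livers. The r of Srebf1 or Mlxipl with a gene of that block lies between -0.30 and 0.76.

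Genes whose levels followed a gene most closely were taken as those with the highest Pearson r over the 16 libraries after subtraction of each group's mean, given as a description across libraries that share their processing. For Srebf1 they were Mettl17 (0.886), Atg14 (0.879), Gstp1 (0.852), Grb7 (0.845) and Trp53 (0.837). For Mlxipl they were Dhrs3 (0.941), Enpp3 (0.915), Sntg2 (0.911), 4930523C07Rik (0.900) and Ptprd (0.894). For Acss2 they were Chrna4 (0.944), Pnpla3 (0.938), Khk (0.934), Rdh11 (0.922) and Pklr (0.920). Among these 15 genes, Sntg2 was lower (log2 -0.61, limma adjusted p = 0.0264, and between 0.0073 and 0.0536 with 1 library left out, the highest without Cyp7a1 19) and Rdh11 was higher (log2 1.23, limma adjusted p = 0.00780). Ranked by likeness to Acss2 among 12616 other genes, Me1 was 12, Acly 27, Acacb 46, Fasn 62 and Acaca 78, whereas Srebf1 was 3495 and Mlxipl 5935. Ranked by likeness to Srebf1, Mlxipl was 202 and Mid1ip1 203, and Acss2 was 4193.

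The SREBP2 and sterol genes were the list that moved most, 14 of 18 higher and 0 lower, with a median log2 difference of 0.96. Of all genes, 3.07% were called higher and 3.05% lower. The lists were chosen with earlier results of these data known, so their order is a description and no test. Srebf2, which encodes the sister factor of cholesterol synthesis, was higher by 0.55 ± 0.09 (SE; limma adjusted p = 0.00225), with 1509 normalized counts in Cyp7a1 and 1026 in Control livers, so the sterol regulatory factors moved in opposite directions. The sterol synthesis enzymes Msmo1 and Fdps were higher by 1.61 ± 0.22 and 1.87 ± 0.31 (SE; limma adjusted p = 0.000403 and 0.00212). After subtraction of group means, the median r with these 18 genes over 16 libraries was 0.826 for Acss2, 0.761 for Me1, 0.706 for Fasn, 0.697 for Acaca, 0.672 for Acly and 0.670 for Acacb. It was 0.370 for Thrsp, 0.178 for Mid1ip1, 0.04 for Srebf1 and -0.13 for Mlxipl, and for each of the 10 genes the median r with all other genes lay between -0.01 and 0.02.

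Of 14 genes listed as SREBP processing and cofactors, 1 was higher and 2 were lower, with a median of -0.06. Over all genes, 3.07% were called higher and 3.05% lower. The list also holds the nuclear receptors Nr1h3, Nr1h2, Rxra and Nr1i3, which do not process SREBP. Of these 14, 7 had an unadjusted p under 0.05, in both directions. Over all 12617 genes tested, between 2429 and 2605 had such a p. Insig2, which holds the SREBP precursors in the endoplasmic reticulum, was lower by a log2 difference of -0.57 ± 0.14 (SE; limma adjusted p = 0.0259, and 0.0141 to 0.0512 with 1 library left out, lost without Cyp7a1 28 or Control 12). Scap, the escort of the precursors, was higher by 0.26 ± 0.07 (SE; limma adjusted p = 0.0311), and its call was lost without any 1 of Cyp7a1 2, 5, 26 and 28 and Control 13, 16, 25 and 35, with adjusted p from 0.00918 to 0.0572 over the 16 such fits. Mbtps1, the protease that makes the first cut of the precursors, was lower by -0.16 ± 0.04 (SE; limma adjusted p = 0.0232, and 0.0146 to 0.0506 with 1 library left out, lost without Cyp7a1 28). Among 13 tested ChREBP partners and targets, with a median of 0.07, 0 were called in either direction by limma and 1 had an unadjusted p under 0.05. The one with the smallest p, the hepatokine gene Fgf21, differed by 1.13 ± 0.44 (SE; limma adjusted p = 0.145).

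Of 13 SREBP1 downstream lipid enzymes and regulators, 2 were higher and 1 lower, with a median of -0.08. Over all genes, 3.07% were called higher and 3.05% lower. Fads1, the delta-5 desaturase, was higher by 0.46 ± 0.10 (SE; limma adjusted p = 0.0150). Lpin1, a phosphatidate phosphatase, was higher by 0.93 ± 0.26 (SE; limma adjusted p = 0.0433), and the call was lost without any 1 of Cyp7a1 5, 17, 19, 28 and 36 and Control 12, 13, 16, 25 and 35, with adjusted p from 0.0254 to 0.0866. Angptl8, a feeding-induced inhibitor of lipoprotein lipase, was lower by -0.74 ± 0.21 (SE; limma adjusted p = 0.0452), and the call was lost without any 1 of Cyp7a1 2, 17, 19, 24, 26 and 36 and Control 12, 20, 25 and 35, with adjusted p from 0.0238 to 0.0864. Scd1, the stearoyl-CoA desaturase, averaged 487670 normalized counts in Cyp7a1 and 590870 in Control livers and did not pass (log2 -0.29 ± 0.19, SE; limma adjusted p = 0.434). Its value is named beside the list as the desaturase that acts on the product of Fasn, and it was chosen after its value was seen.

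Over all genes, 6.12% were called, 3.07% higher and 3.05% lower, and 1 call in 13 or 14 genes is near that share. Citrate and NADPH supply gave 1 of 13 higher and 0 lower, with a median of 0.05. That gene was Mdh2, the mitochondrial malate dehydrogenase, at 0.20 ± 0.05 (SE; limma adjusted p = 0.0270, and 0.0183 to 0.0588 with 1 library left out, lost without Cyp7a1 28 or Control 16). A list named malonyl-CoA and AMPK control, which also holds acyl-CoA enzymes outside both, gave 0 of 14 higher and 1 lower, with a median of 0.03. That gene was the acyl-CoA thioesterase Acot11, at -0.55 ± 0.15 (SE; limma adjusted p = 0.0409), and the call was lost without any 1 of Cyp7a1 2, 24, 26, 28 and 36 and Control 7, 12, 16, 25 and 38, with adjusted p from 0.0265 to 0.0794. Of 12 insulin and fasting genes, 2 were higher and 0 lower, with a median of 0.07. They were Ppargc1a, a coactivator of fasting metabolism, at 0.69 ± 0.11 (SE; limma adjusted p = 0.00175) and Igfbp1, an insulin-repressed secreted protein, at 1.07 ± 0.23 (SE; limma adjusted p = 0.0126). Of 13 clock genes, with a median of -0.04, 0 were called by limma and 1 had an unadjusted p under 0.05. Over all 12617 genes tested, between 2429 and 2605 had such a p. The smallest p of the clock genes was that of Ciart at 0.73 ± 0.30 (SE; limma adjusted p = 0.167). Over the 16 libraries, after subtraction of group means, r of the 13 clock genes with Srebf1 ran from -0.30 to 0.71 with a median of 0.58, and their part in the Srebf1 result was not tested.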

How the data were processed

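The deposited table holds normalized counts, a signal per gene and library that the authors scaled before deposit, for 12618 genes and 16 libraries. The submitters' processing notes name the build mm10 and, without roles, STAR 2.7.11a, Trim Galore 0.6.10, DESeq2, featureCounts and R 3.6.3. Neither the annotation release nor the strand setting is given in the sources used here, and the same holds for the rule that selected the genes. Per the labels' protocols, mRNA libraries were made from total RNA of frozen liver.

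Values were whole multiples of a fitted step of 0.769 to 1.54 normalized counts for 99.9% or more of genes (tolerance 0.05 reads), which gave the depth and was used for nothing else. One gene, Ccne2, with a cell that is not a number was left out, and 19 symbols turned into dates were restored from gene IDs. Coordinates and exon lengths are from GENCODE M21 on GRCm38, 1-based, and promoter windows from RefSeq.

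Groups were compared on log2(normalized count + 1) with limma-trend (limma 3.58.1, R 4.3.3), and two-sided p-values were adjusted over 12617 genes by the Benjamini-Hochberg method, with 0.05 as the threshold. A fold change is Cyp7a1 minus Control on the log2(value + 1) scale and understates changes of weakly expressed genes. A minimum mean of 10 removed no gene, since the lowest mean was 13.3. For ratios, the same model was fitted after subtracting each library's log2 Srebf1 or Mlxipl. Those fits share the subtracted gene across all rows, so exact permutation tests of the ratios (numpy 2.4.6, 12870 assignments) stand beside them. Correlations used exact permutation over 40320 pairings, with the ranks for rho from scipy 1.17.1.

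The members and gene lists were chosen with earlier results of these data known. Named genes were the 10 members, Cyp7a1, up to 3 called genes per list in order of p (1 for a list with no call), and the 5 genes most like Srebf1, Mlxipl and Acss2. Nr1h3, Nr1h2, Scd1, Dhrs11, Cyp3a11 and Krt23 fall outside that rule and were named after their values were seen. The alternatives tried were array weights, equal totals, quantile normalization, a pseudocount of 8, a minimum mean of 50 or none, and each library left out. Leaving out Control 20 and Cyp7a1 36 together was chosen after seeing the data.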

Additional observations from a re-analysis of the deposited data

Results flagged for a closer look

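In Control livers, Srebf1 in Control 20 stood apart from the other 7, with a gap to its nearest neighbour of 0.556 of the group's whole range on the log2 scale. Acly in Control 20 stood apart in the same way, with a gap of 0.589 of the range. Control 20 held 17100 normalized counts of Srebf1 and 13230 of Acly, against next highest Control values of 12036 and 5276. In all, 22 groups of 8 values were examined, 2 per gene for the 10 members and 2 for depth. Chance flags about 1 in 20 such groups. Without Control 20, Srebf1 averaged 10198 ± 1013 normalized counts in Control livers (SD, n = 7), still above every Cyp7a1 liver's level, which reached 6138 at most.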

How the results depend on the processing

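The calls of Srebf1 and Mlxipl as lower and of Acss2 as higher were kept under every alternative that was run. Members called stayed at 1 higher and 2 lower, and 8 enzymes passed relative to Srebf1, in each of these fits. With 1 library left out, the limma adjusted p ran from 6.10e-07 to 0.000144 for Srebf1, from 0.00338 to 0.0263 for Mlxipl and from 0.000799 to 0.0303 for Acss2. Relative to Mlxipl, 6 to 8 enzymes passed with 1 library left out and 7 without Control 20 and Cyp7a1 36. Of the regulator and enzyme relations, 0 to 1 passed with 1 library left out. Over all genes, leaving out 1 library gave 230 to 399 higher and 245 to 414 lower, the lowest of each without Cyp7a1 28 (lower also 256 without Control 16), and the other settings gave 263 to 485 higher and 257 to 450 lower, the cause of which was not tested. The small differences of Acaca, Fasn and Mettl17 changed sign with array weights (0.0359, 0.0337 and 0.0234) and without Control 20 and Cyp7a1 36 (0.0928, 0.182 and 0.0120), and that of Pnpla3 changed sign (0.0666) without those 2 libraries. With 1 library left out they ran from -0.114 to 0.0473 for Acaca, from -0.149 to 0.0945 for Fasn and from -0.0574 to 0.0352 for Mettl17. Calls of list genes that other settings ended were Mbtps1 (adjusted p = 0.0557, equal totals), Mdh2 (up to 0.0982, equal totals, quantile normalization and the 2 libraries left out), Angptl8 (up to 0.119, array weights and the 2 libraries left out), and, without those 2, Insig2 (0.0559), Lpin1 (0.0816) and Acot11 (0.0771). Planned tests on counts, with edgeR and DESeq2, were not run, since in 10 of 16 libraries the smallest value was more than 1 read and the rule that allows a count test on recovered reads was not met. No paired analysis was possible because the groups share no replicate numbers. With 8 livers per group, the 95% intervals of Acly, Fasn and Me1 are wide, and a p that misses the threshold does not show that their levels are equal.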
